A study of Mus musculus with 9 samples.

Results

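The regions described here are H3R2me2a peaks that both Prmt6 knockout libraries list at the same place and that neither wild-type library lists. They were chosen by these values: a peak of Prmt6KO replicate 1 with a summit of 5 or more fragments on chromosomes 1 to 19, sharing at least 1 bp with a Prmt6KO replicate 2 peak of 6 or more fragments, and sharing no base with a peak of either WT list. The rule found 1211 regions among the 55419 replicate 1 peaks of that height and the 1548240 peaks of all 6 lists. The 1211 regions are called members below. Because their heights and their absence from WT chose them, both are given as a description with no test.

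H3R2me2a is asymmetric dimethylation of arginine 2 of histone H3, a mark deposited mainly by the nuclear enzyme PRMT6. It is known to oppose trimethylation of the neighbouring lysine 4, a mark of active promoters, and so is usually described as a mark of repression at gene starts. A knockout of the writer asks where signal in the immunoprecipitate is found without that enzyme.

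Mouse bone marrow cells, named as leukemia cells in the series' description, were grown in IMDM with the cytokines IL3, IL6 and SCF. One H3R2me2a antibody was used for chromatin immunoprecipitation and sequencing in 3 genotypes with 2 libraries each. WT stands for wild type, Prmt6KO lacks Prmt6, and Igf2bp2KO lacks Igf2bp2, a reader protein of m6A in RNA. The driver of the leukemia, the extent of the deletions and the animals behind each library are not given in the sources used here, so the spread between libraries may be technical. Libraries were amplified for 20 cycles, and whether duplicate reads were removed is not given either. The input libraries were not analysed here, and the cell type cannot be checked from a list of histone peaks.

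The lists differ in depth and length. On chromosomes 1 to 19 the Prmt6KO lists held 761463 and 396471 peaks, and the WT lists 160428 and 123625. The background behind the fold enrichment, the only depth visible in these lists, was 0.736 and 1.21 fragments in Prmt6KO and 1.46 and 1.44 in WT. The lowest fold enrichment listed was 2.03 and 2.05 in WT, against 1.73 and 1.81 in Prmt6KO. A region absent from WT is therefore a region below about these WT values at its summit, not a region shown to lack the mark.

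The members were low. In replicate 1, 879 of them (72.6%) had the lowest summit allowed, 5 fragments or a fold enrichment of 3.46, and in replicate 2, 836 (69.0%) had the lowest allowed, 6 fragments or 3.17. At the lowest height in both libraries stood 606. Just outside the rule lay 2589 replicate 1 peaks of 4 fragments with a replicate 2 match and no WT peak, and 2194 peaks of 5 or more fragments whose match had 5. The highest fold enrichment of a member was 8.06 in replicate 1 and 6.79 in replicate 2. A q of 0.05 or below, a value of the authors' peak caller, was reached by 111 members in replicate 1, by 110 in replicate 2 and by 18 in both. Among members, fold enrichment and q followed from the summit height in each library. This q was reached from 7 fragments in replicate 1 and from 8 in replicate 2. The members had a median width of 353 bp (quartiles 285.5 and 484) and covered 0.498 Mb in all.

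Much of the list was also reached when positions were broken. The replicate 2 list was moved along each chromosome by 20 fixed circular shifts, and the rule was applied again with the replicate 1 and WT lists in place. The shifted lists gave between 820 and 946 regions with a median of 896.5, so the 1211 members were 1.35 times that median. The members are 2.19% of the replicate 1 peaks of 5 or more fragments, and 2.47% of the 48947 of these without a WT peak. A low member taken singly cannot be told apart from such a region. A shift also breaks any regional density that the lists share, and the part of this in the excess was not tested.

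The excess over the shifted lists differed with height in replicate 1. At 5 fragments in replicate 1 there were 879 members and a shifted median of 664.5, and at 6 fragments 221 and 174.5. At 7 fragments there were 80 members, above the shifted range of 28 to 55. At 8 or more fragments there were 31, above the shifted range of 8 to 18. Asking 1 fragment more in both libraries left 102 regions against a shifted median of 75. That ratio of 1.36 was close to the 1.35 of the main rule. With a q of 0.05 or below in both libraries there were 18 regions, against 1 to 11 in the shifted lists. A fold enrichment of at least 4 in both was found at 36 members, and the highest shifted list also had 36. Height in both libraries is part of the rule, fold enrichment and q restate that height, and the shifts give no test.

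**Figure D1:**
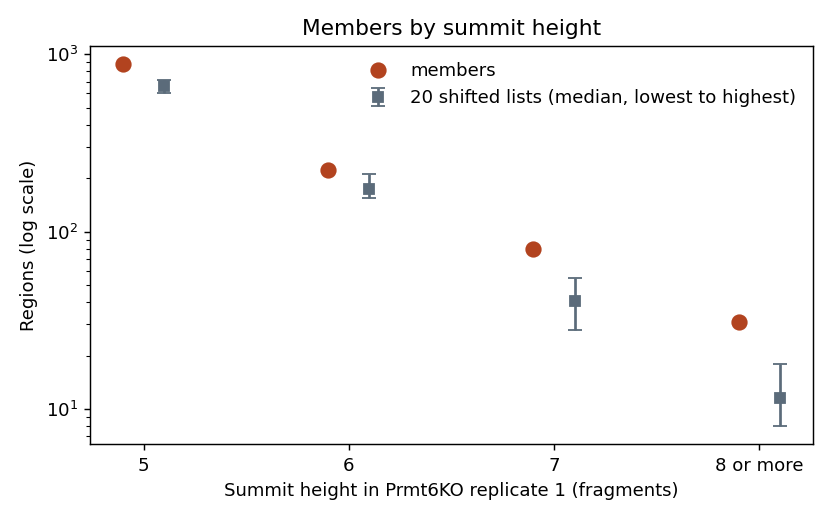
Number of regions (log scale) by summit height in Prmt6KO replicate 1, for the 1211 members (points) and for 20 shifted lists (squares at the median, bars from the lowest to the highest). Members lie above the highest shifted list at each height, from 879 against 718 at 5 fragments to 31 against 18 at 8 or more.

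The 2 libraries placed their summits closer than shifted positions do. The median distance between the summits of a member was 142 bp, and in shifted lists between 170 and 191 bp. Summits lay within 50 bp of each other at 223 members (18.4%), a share that was 11.7% to 16.8% in shifted lists. When at least 50% of both peaks had to be shared, 516 members were left, against 261 to 323 in shifted lists. At 116 members the summits were over 400 bp apart.

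**Figure D2:**
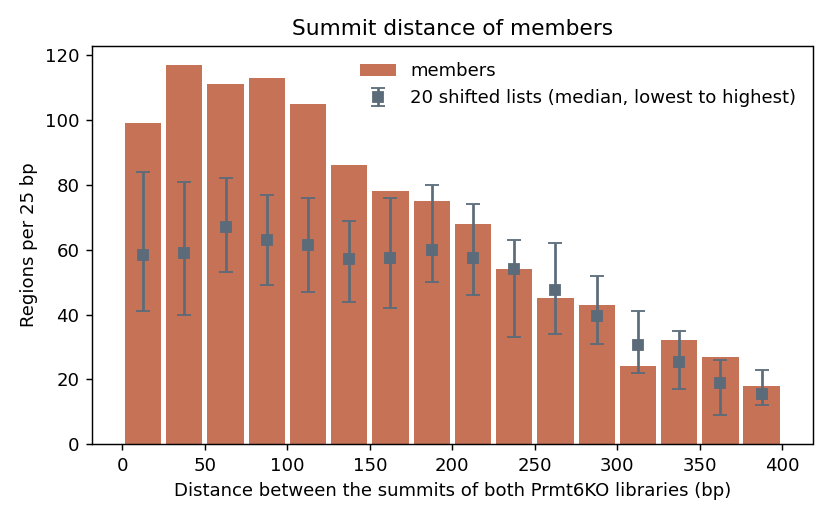
Number of regions per 25 bp of distance between the summits of both Prmt6KO libraries, up to 400 bp, for members (bars) and for 20 shifted lists (squares at the median, error bars from the lowest to the highest). The members exceed the shifted range at distances up to 175 bp and fall within it or close to it beyond.

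Promoter sequence shows where members met gene starts. The promoter windows of RefSeq (GRCm38.p6, the build mm10) reach from 250 bases before to 50 after a start and covered 25748 genes. Of the members 11 (0.908%) overlapped such a window, against 0.633% of replicate 1 peaks of 5 or more fragments and 1 to 9 regions in shifted lists. The 4 with the highest lower fold enrichment of both libraries are printed, because they stood highest among the members that overlap a window. The fold enrichment is that of the whole peak, whose summit can lie outside the window. The sequence runs 5′ to 3′ on the strand of the gene, and capitals mark the bases inside the replicate 1 peak.
Vmn1r155, chr7:22657768-22658067, plus strand: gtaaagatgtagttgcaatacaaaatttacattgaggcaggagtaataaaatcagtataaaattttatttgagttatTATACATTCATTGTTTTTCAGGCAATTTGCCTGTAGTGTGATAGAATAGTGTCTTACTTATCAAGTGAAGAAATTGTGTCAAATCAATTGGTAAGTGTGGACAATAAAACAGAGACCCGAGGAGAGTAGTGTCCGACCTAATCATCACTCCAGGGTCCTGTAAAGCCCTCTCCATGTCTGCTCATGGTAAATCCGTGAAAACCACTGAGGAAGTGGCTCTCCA
Gm3435, chr17:15009590-15009889, plus strand: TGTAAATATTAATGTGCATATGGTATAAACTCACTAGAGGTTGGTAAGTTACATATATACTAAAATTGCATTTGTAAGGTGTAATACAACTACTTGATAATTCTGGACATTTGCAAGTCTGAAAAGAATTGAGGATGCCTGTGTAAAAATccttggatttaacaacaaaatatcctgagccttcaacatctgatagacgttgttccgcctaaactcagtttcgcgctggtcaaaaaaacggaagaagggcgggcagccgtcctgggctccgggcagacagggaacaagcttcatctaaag
Pfdn2, chr1:171344704-171345003, plus strand: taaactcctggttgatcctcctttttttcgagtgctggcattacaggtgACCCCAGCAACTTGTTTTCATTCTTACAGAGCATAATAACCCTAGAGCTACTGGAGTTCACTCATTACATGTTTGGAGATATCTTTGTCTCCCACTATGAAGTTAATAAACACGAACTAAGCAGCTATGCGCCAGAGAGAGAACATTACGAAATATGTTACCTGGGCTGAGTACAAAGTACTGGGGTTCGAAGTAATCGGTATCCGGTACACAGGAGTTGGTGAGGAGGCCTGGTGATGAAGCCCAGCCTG
Rbms2, chr10:128180248-128180547, minus strand: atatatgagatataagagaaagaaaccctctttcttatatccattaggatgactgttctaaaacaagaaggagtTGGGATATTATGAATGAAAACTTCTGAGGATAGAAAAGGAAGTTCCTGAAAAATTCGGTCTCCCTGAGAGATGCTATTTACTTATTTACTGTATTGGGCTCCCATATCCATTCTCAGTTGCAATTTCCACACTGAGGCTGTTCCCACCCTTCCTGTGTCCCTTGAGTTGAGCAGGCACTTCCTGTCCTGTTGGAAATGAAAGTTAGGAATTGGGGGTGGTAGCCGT

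Vmn1r155 encodes a vomeronasal receptor, which senses pheromones. Its member at 22657845 to 22658909 on chromosome 7 had 7 and 10 fragments in the 2 Prmt6KO libraries, or fold enrichments of 4.61 and 4.98. The replicate 1 peak took in 223 of the 300 bases printed, but its summit, at 22658759, lay past the window. The replicate 2 peak, from 22658566 on, did not reach the window, so these heights are not replicated signal at the gene start. Gm3435, a predicted gene of chromosome 17, shares its member with the overlapping gene Gm3448. That member had 6 and 9 fragments (4.03 and 4.53), and 150 bases of the window lay in it. Its replicate 1 summit, at 15009288, lay before the window. Pfdn2 encodes a subunit of the chaperone prefoldin and overlaps Nit1, an amidase gene, at this end. Its member at 171344753 to 171345068 on chromosome 1 had 6 and 8 fragments (4.03 and 4.07), with the summit at base 242 of the printed sequence. Rbms2, a gene for an RNA-binding protein, had 6 and 7 fragments (4.03 and 3.62), with the summit at base 230.

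These gene starts were poor in CpG. The 11 windows held a median of 3 CpG, between 1 and 11, where all 31396 windows had a median of 7 and quartiles of 3 and 21. In none of the 11 were there 15 or more CpG, a count that 35.2% of all windows reached. Their median GC content was 44.3%, against 53.0% in all windows. Of the 11, 5 were starts of long noncoding RNA genes: Gm32196, Gm30212, 9130230L23Rik, Gm19583 and Gm33651. Among the 25748 genes with a window, 16456 were protein-coding genes of the table used here. The share of long noncoding RNA genes among all windows was not counted, so 5 of 11 is not shown to be a trait of members. CpG and GC content were not compared with those of other peaks at gene starts.

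The larger share of members, most of them at the lowest heights, had summits outside protein-coding genes. Counting every annotated gene, 556 members overlapped one. Of the summits, 768 (63.4%, 95% Wilson interval 60.7 to 66.1, counting error alone) were outside protein-coding genes and their end windows of 1 kb either side. Replicate 1 peaks of 5 or more fragments without a WT peak had 58.0% (57.5 to 58.4) there, and shifted lists 54.8% to 63.9%. Gene bodies held 406 summits (33.5%), against 39.6% of the peaks without a WT peak. Gene-end windows were met by 42 members (3.47%, interval 2.58 to 4.65), against 2.90% of the peaks without a WT peak and 1.34% to 3.85% in shifted lists. Both shares lay within the range of the shifted lists. With 1 fragment more in both libraries, which left 102 members, the gene-end share was 10.8% (6.13 to 18.3) and the intergenic share 55.9% (46.2 to 65.1). For the 18 members with a q of 0.05 or below in both they were 16.7% (5.84 to 39.2) and 44.4% (24.6 to 66.3). Shares of other peaks or of shifted lists at these heights were not counted, so a move of higher members towards gene ends is not shown. Outside protein-coding genes and their end windows the median distance to the nearest such gene was 111952 bp.

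The members were spread over all 19 chromosomes. Each chromosome held more members than the median of the shifted lists, and on 13 the count was above the highest shifted list. Chromosome 1 had 134 (shifted lists 78 to 108), chromosome 4 had 98 (54 to 84) and chromosome 7 had 87 (37 to 65). Chromosome 2 had 48 (15 to 36) on 179 Mb, or 26.8 members per 100 Mb, the lowest density of the 19, where chromosome 1 had 69.7. It also held few replicate 1 peaks of 5 or more fragments for its length, 2757 against 4930 on chromosome 1. As a share of such peaks, members were 1.74% on chromosome 2 and 2.72% on chromosome 1. Chromosomes 17 (1.71%) and 19 (1.68%) had a lower share than chromosome 2.

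**Figure D3:**
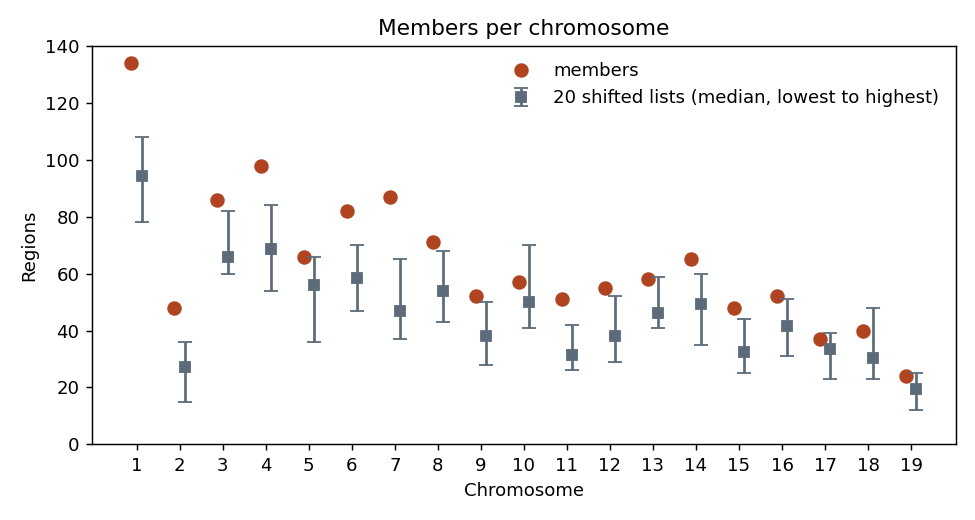
Number of members on each of 19 chromosomes (points), with 20 shifted lists (squares at the median, bars from the lowest to the highest). The points lie above every square, and the widest gaps to the shifted range are on chromosomes 1 (134 against at most 108) and 7 (87 against at most 65).

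Another member lay within 100 kb of 218 members (18.0%), where the share in shifted lists was 11.3% to 17.7%. This share depends on the number of regions. The shifted lists held 820 to 946 against 1211 members, and the shares are not matched for this, so closer grouping of members is not shown. The share was 4.79% at a distance of 10 kb. In smaller sets, also not matched, it was 8.82% with 1 fragment more in both libraries, 11.1% at a q of 0.05 in both and 6.01% with reciprocal overlap. The 993 members outside the 218 had no other member within 100 kb. Cut into windows of 1 Mb, the members fell into 878 windows, of which 656 held 1 member and 8 held 5 or more. The 6 fullest windows held 55 members. The windows were picked for their counts, so they were set against the windows of the same rank in each shifted list, a comparison added after the data were seen. The fullest held 13 members, within the 6 to 15 of shifted lists. The next held 12 and 10 (shifted 5 to 11 and 4 to 8), then 7 and 7 (4 to 8 and 3 to 6) and 6 (3 to 5). The shifted lists hold fewer regions in all, which the ranks do not allow for. These windows were dense in peaks, with 103, 163, 178, 90, 216 and 148 replicate 1 peaks of 5 or more fragments in the same order. The median window with such peaks held 22. Members were 12.6%, 7.36%, 5.62%, 7.78%, 3.24% and 4.05% of these peaks, against 2.19% on all chromosomes. The WT lists together held 370 to 932 peaks in each of the 6, against a median of 117. All 6 windows hold families of similar gene copies, between which reads can be shared, and the part of this in the result was not tested.

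The fullest window, 22 to 23 Mb of chromosome 7, held 13 members among the Vmn1r vomeronasal receptor genes, with replicate 1 summits of 5 to 7 fragments and replicate 2 summits of 6 to 10. Of the 13, 2 overlapped a protein-coding gene, Vmn1r155 and Gm4567. The nearest genes of others included the receptor genes Vmn1r157, Vmn1r159 and Vmn1r160. The WT lists held 276 and 198 peaks in the same window, beside the members.

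In the window of 15 to 16 Mb on chromosome 5, there were 12 members, 10 of them outside protein-coding genes. A Speer4 gene, of a family known for expression in spermatogenesis, was the nearest to 3 of them, and predicted genes such as Gm21190 and Gm17019 to the others. The member in Speer4c, at 15712873 to 15713273, had 10 and 9 fragments, or fold enrichments of 6.33 and 4.53, with summits 7 bp apart. The member 39814 bp from Speer4d, at 15663678 to 15664091, had 8 and 11 fragments (5.18 and 5.43) with summits 31 bp apart. The member at the end of Speer4d had 6 and 14 fragments (4.03 and 6.79), but its summits were 1900 bp apart. WT replicate 1 listed 264 peaks in this window and WT replicate 2 listed 106.

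The window of 85 to 86 Mb on chromosome 1 held 10 members. It contains genes of the Sp100 family, nuclear body proteins of the interferon response, and 1 of the 10 lay in Cab39, which is not of that family. Gm38510 had the highest, at 85154792 to 85155542, with 8 and 9 fragments (5.18 and 4.53) and summits 19 bp apart. Sp110, Sp140 and Sp100 each held 1 member of 5 fragments in replicate 1, with 7, 8 and 7 in replicate 2.

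The next windows were all on chromosome 4, and zinc finger genes held some of their members or were nearest to some. There were 7 members between 145 and 146 Mb, all outside protein-coding genes. Zfp980 was nearest to 4 of them, at 6230 to 157814 bp, and Gm42346 or Gm13212 to the others. Some of the 7 overlapped other annotated genes, such as the pseudogene Vmn2r-ps15. Another 7 lay between 147 and 148 Mb and 6 between 146 and 147 Mb. Zfp993, with 4 members over 479 kb, shared with Sntg1, a syntrophin gene of 942 kb, the highest count of any gene. Its highest member had 7 and 8 fragments (4.61 and 4.07). Zfp978 held 3 and Zfp982 2. At Zfp600 replicate 1 had 5 fragments and replicate 2 had 11 (3.46 and 5.43).

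**Figure D4:**
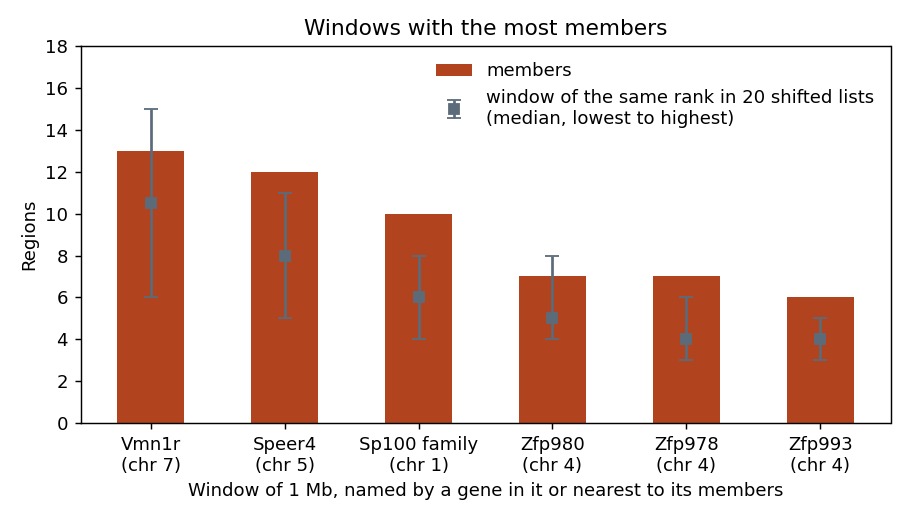
Members in the 6 windows of 1 Mb that hold most (bars, each window named by a gene in it or nearest to its members), with the window of the same rank in 20 shifted lists (squares at the median, error bars from the lowest to the highest). The fullest window, with 13 members, lies within the shifted range of 6 to 15.

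Of the 20 members with the highest lower fold enrichment, 4 had their summit in a gene-end window, 8 in a gene body and 8 outside genes, and 18 passed a q of 0.05 in both libraries. Beside those named above, Gm5373 on chromosome 8 had 7 and 13 fragments, or 4.61 and 6.34. Usp17le, a deubiquitinase gene on chromosome 7, had 11 and 8 (6.91 and 4.07). Mup19 on chromosome 4, of the family of urinary pheromone carriers, had 7 and 8 (4.61 and 4.07), with summits 420 bp apart. Outside these families, Strn3, a striatin gene on chromosome 12, had 8 and 8 fragments (5.18 and 4.07). Cep83, a centriole gene on chromosome 10, and Trps1, a GATA-type repressor gene on chromosome 15, each had 7 and 8 (4.61 and 4.07). Members of 7 and 8 fragments also lay 509078 bp from Pcdh9 and 404886 bp from Dach1 on chromosome 14, outside any protein-coding gene.

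The member highest in replicate 1 is named outside the rule for names, after its values were seen. It lay in Klra2, a receptor gene of natural killer cells, at 131199142 to 131199633 on chromosome 6. It had 13 fragments in replicate 1 (fold enrichment 8.06) and 6 in replicate 2 (3.17), and a WT peak lay 91 bp away.

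Gene-end windows of 42 genes held a member. Vmn1r155, Gm38510, Mup19 and Speer4d led by the lower fold enrichment, followed by Gm3435, Gm3448, Nit1 and Pfdn2. Vmn2r129, a vomeronasal receptor gene, and Smok2a, a sperm kinase gene, each had 7 and 7 fragments (4.61 and 3.62). Cul5, a cullin of ubiquitin ligases, had 6 and 7 (4.03 and 3.62). Amy2a2, a pancreatic amylase gene, had 5 and 8 (3.46 and 4.07). Gm51591 on chromosome 8 had 3 members near its ends, with 6, 5 and 5 fragments in replicate 1 and 7, 7 and 6 in replicate 2, of which those with 7 share 1 replicate 2 peak. Lap3, an aminopeptidase gene, and Otx2, a homeobox gene of brain development, each had 5 and 7 (3.46 and 3.62).

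By gene list the counts were small. Of all 20661 protein-coding genes, 428 (2.07%) held a member between their ends or in a gene-end window. These genes held 446 members, where shifted lists gave 297 to 404. Zinc finger genes had 9 of 415, a share close to that of all genes, with 14 members where shifted lists gave 1 to 9. Most of the 14 lay in the chromosome 4 windows described above, so this count largely repeats those windows and is not shown to be a trait of the family. Vomeronasal receptors had 7 of 352, or 1.99%, with 7 members against 0 to 4. The named ones beside Vmn1r155 and Vmn2r129 included Vmn2r23 with 5 and 7 fragments. Speer genes had 2 of 10 and major urinary proteins 2 of 22, the latter Mup19 and Mup5. Olfactory receptors had 2 of 1104, Olfr700 and Olfr449. Of the Ugt1a and Ugt2 genes 4 of 19 shared 1 member, since Ugt1a genes share an end, and 13 of the 15 cadherin genes hit shared 1 member in the protocadherin alpha cluster. Cdh9 and Cdh8 held the others. Shares of genes depend on gene length, with a median of 0.95 kb in olfactory and 0.96 kb in vomeronasal receptors, 89.6 kb in cadherins and 17.5 kb in all genes. Of replicate 1 peaks of 5 or more fragments there, members were 2.67% in olfactory and 6.42% in vomeronasal receptors. The share was 2.69% in zinc finger genes and 1.40% in cadherins, against 1.92% in all genes. These shares also rest on few members.

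Against the 2.07% of all genes, lists of this size would hold few hits. Leukemia and blood stem cell genes had 0 of 27 and m6A genes 0 of 18. Of other lists, cytosolic ribosomal proteins had 0 of 80, histone genes 0 of 75, keratin and keratin-associated genes 0 of 112 and defensins 0 of 71. Shifted lists gave at most 4 members in the leukemia list and at most 2 in any of the other 5. Of lipid transport genes 1 of 26 was hit: the cholesterol exporter gene Abcg1 had 7 and 6 fragments (4.61 and 3.17) near 1 of its ends on chromosome 17. Of arginine methyltransferases 1 of 9 was hit: Prmt9 had 5 and 6 fragments (3.46 and 3.17), the lowest heights the rule allows.

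The study's own genes held no member. The nearest member to Prmt6 was 711 kb away, to Mfsd2a, a transporter of lysophospholipids, 737 kb and to Igf2bp2 1532 kb. Igf2bp2 overlapped 1 replicate 1 peak and 2 replicate 2 peaks of the heights asked, none of them shared, and Prmt6 and Mfsd2a overlapped 0 and 0.

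WT peaks were often close to the members. At 385 members (31.8%, interval 29.2 to 34.5) a WT peak lay within 1 kb, against 21.3% of all replicate 1 peaks of 5 or more fragments that overlap no WT peak, and a median of 22.2% and at most 24.1% in shifted lists. The median distance to the nearest WT peak was 2049 bp and the smallest 3 bp. With no WT peak allowed within 1 kb, 826 members remained, and 7.63% of them had another member within 100 kb.

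The WT libraries did not act alike as a filter. Of the 2894 replicated Prmt6KO regions, 1142 had a peak in both WT lists, 371 in WT replicate 1 alone and 170 in WT replicate 2 alone. Between 15 and 16 Mb of chromosome 5, 79 regions had a peak in WT replicate 1 alone, 0 in WT replicate 2 alone and 12 in neither. Without WT replicate 1 the rule gave 1582 members, of which 30.1% had another within 100 kb and 7.40% an Igf2bp2KO peak. Without WT replicate 2 it gave 1381.

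The Igf2bp2KO lists, which the rule did not use, held a peak at 11 members (0.908%, interval 0.508 to 1.62). The count was 5 in replicate 1 and 7 in replicate 2, with 1 member found in both, where shifted lists gave at most 1. Of all 55419 replicate 1 peaks of 5 or more fragments, those with a WT peak included, 804 (1.45%) had an Igf2bp2KO peak, a larger share than of members. Of the 47736 of these without a replicate 2 match and without a WT peak, 4 (0.00838%) had one. Of regions with a WT peak in replicate 1 alone 28.6% had one (24.2 to 33.4), in replicate 2 alone 4.71% (2.40 to 9.01) and in both 55.8% (52.9 to 58.6). The median summit in Prmt6KO replicate 1 was 7 fragments for regions in both WT lists, 6 for WT replicate 1 alone, and 5 for WT replicate 2 alone as for members. The Igf2bp2KO lists held only 912 and 1124 peaks on these chromosomes, so that absence there says little.

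**Figure D5:**
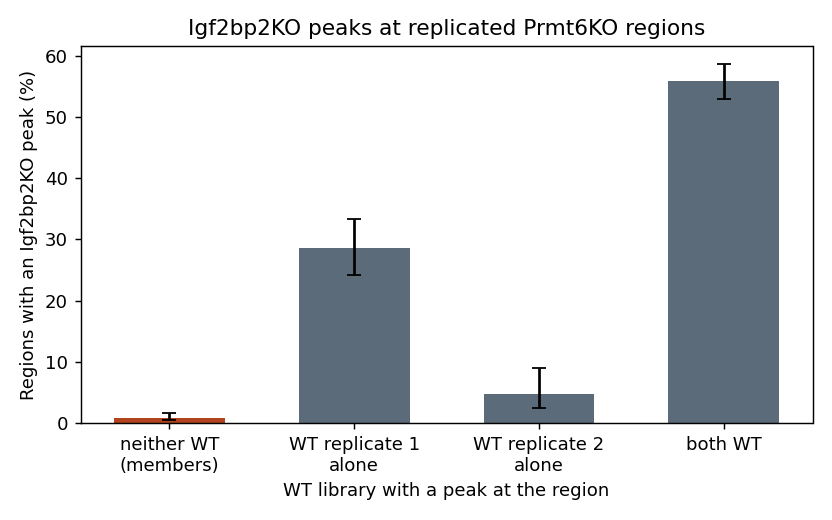
Share of replicated Prmt6KO regions with an Igf2bp2KO peak in either library, by the WT library that lists a peak there, with Wilson intervals of 95% for counting error. Members, seen in neither WT library, are at 0.908%, and regions seen in both are at 55.8%.

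The Igf2bp2KO peaks at these 11 members had a -log10 q of 0, so none had support after the peak caller's correction. Of the 11, 5 lay between 15 and 16 Mb of chromosome 5, and 1 in Gm9758 on the same chromosome. The member in Speer4c had an Igf2bp2KO replicate 1 peak with a fold enrichment of 3.48, and the member at 15663678 to 15664091 a replicate 2 peak with 3.29. At 15595454 to 15595757 both libraries had a peak, with 2.89 and 2.86. The others lay on chromosomes 3, 4, 8, 12 and 17.

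The opposite set was also counted, after the values above were seen. Of 44440 WT replicate 1 peaks with 7 or more fragments, a fold enrichment of 3.25, 334 (0.752%) overlapped a WT replicate 2 peak of 7 or more and no Prmt6KO peak, where shifted lists gave 167 to 224. Counting a Prmt6KO peak as present only at the lowest WT fold or above gave 358. The Prmt6KO lists are longer than the WT lists, so absence is harder to meet in this direction, and the 2 counts are not rates of gain and loss.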

How the data were processed

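Peak lists of 6 H3R2me2a ChIP-seq libraries were used. MACS2 2.1.0, HISAT2, bcl2fastq 2.17, bedtools and Trim Galore are named, without settings, in the submitters' processing notes, with mm10 as the build. Each deposited list holds the peaks of 1 library with a summit pileup, a coverage signal, which is in fragments in WT and Prmt6KO and scaled in Igf2bp2KO. It also holds a fold enrichment, a ratio to background, and -log10 p-values and q-values, all scores of the authors' own. Total reads per library are not given in the sources used here. Overlap meant 1 shared bp. Genes were 20661 protein-coding RefSeq genes of GRCm38.p6, in a table without strand, so the window of 1 kb was set at both gene ends. Promoter sequences came from RefSeq, and 16456 of these genes had one. Where windows on opposite strands overlapped, all 1792 pairs were reverse complements. Shift k moved the Prmt6KO replicate 2 list by k parts in 21 of each chromosome. Functions were checked on simulated intervals (Python 3.11.15, numpy 2.4.6, pandas 2.3.3, scipy 1.17.1). No p-value was computed, since peaks are not replicates. Names follow a rule: the 20 members and 20 gene-end genes of highest lower fold enrichment, 3 genes per list, the 6 fullest windows, genes with 5 or more members (there were 0) and the study's genes. Members, lists and rule were chosen with earlier results of these data known. Settings varied were height, q (which follows height among members), overlap, WT distance, window and each library.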

Additional observations from a re-analysis of the deposited data

How the results depend on the processing

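No paired analysis was possible because the results come from no test. The number of members, 1211, depended on the height and overlap asked. It was 102 with 1 fragment more in both libraries (shifted lists 53 to 84), 18 at a q of 0.05 or below in both (1 to 11) and 516 with a reciprocal overlap of at least 50%. With each library left out in turn it ran from 1381 to 50780, since 1 Prmt6KO list alone asks for no replicate. The intergenic share of 63.4% was 55.9% with 1 fragment more and 44.4% at a q of 0.05 or below, and 58.0% to 65.0% with a library left out. The gene-end share of 3.47% was 10.8% with 1 fragment more, 16.7% at a q of 0.05 or below and 6.44% with windows of 2.5 kb, and 2.34% to 4.42% with a library left out. The share with another member within 100 kb, 18.0%, was 8.82% with 1 fragment more, 11.1% at a q of 0.05 or below, 6.01% with reciprocal overlap, 7.63% with no WT peak within 1 kb and 4.79% at a distance of 10 kb, and 23.3% to 98.1% with a library left out. The Igf2bp2KO share of 0.908% was 2.94% with 1 fragment more, 11.1% at a q of 0.05 or below and 0.242% with no WT peak within 1 kb. With a library left out it was 0.0306% to 7.40%, the highest without WT replicate 1. The cause of these moves was not tested. The stricter sets hold few regions, and the share with another member within 100 kb is not matched for that. Their intergenic and gene-end shares were not set against other peaks of the same heights.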
